A study of Brassica rapa subsp. pekinensis with 6 samples.

Results

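Glucosinolates are sulfur-rich defence compounds of cabbages and their relatives, and the enzyme myrosinase breaks them down when tissue is damaged. Their synthesis is controlled by a small group of R2R3-type MYB transcription factors, which bind DNA and switch on the genes of the pathway. In *Arabidopsis*, *MYB28* activates the genes for aliphatic glucosinolates, built from methionine, whereas *MYB34* and *MYB51* activate those for indolic glucosinolates, built from tryptophan. Chinese cabbage carries several copies of each. From the 35616 genes that had a read in at least 1 library, the 10 genes described here were taken by their gene identifiers. The rule used none of their values, but it was set with earlier results of these data known. The 10 genes are 3 copies of *MYB28* (Bra012961, Bra035929 and Bra029311), 4 of *MYB34* (Bra013000, Bra035954, Bra029349 and Bra029350) and 3 of *MYB51* (Bra016553, Bra025666 and Bra031035). The gene descriptions at hand name Bra016553 and Bra031035 as copies of *MYB51*, and the other names rest on the gene list used for the selection.

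Developing flower buds of 2 lines of Chinese cabbage (*Brassica rapa* subsp. *pekinensis*) were compared by RNA-Seq at full bloom. The wild type, ‘FT’, is a doubled-haploid line, and *fsm* is a female-sterile mutant obtained from it by treating isolated microspores with the mutagen ethyl methanesulfonate (EMS), with no other agent named for either line. The mutated gene is not given in the sources used here, and *fsm* is 1 mutant line. The paper reports single-base variants found only in ‘FT’ or only in *fsm*. It also gives a higher percentage of mapped reads in every *fsm* library than in every ‘FT’ library. Whether these differences, or other EMS changes, affected the counts was not tested. There were 3 libraries of each line, called ‘FT’ 1, 2 and 4 and *fsm* 1, 2 and 3. The methods describe each replicate as mixed buds of 5 plants and also speak of pooling the RNA of replicates, so p-values measure the spread between these libraries, which may be partly technical.

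The 3 ‘FT’ libraries held between 24990396 and 25402146 reads and the 3 *fsm* libraries between 28118248 and 29366538, and 3 reads, taken as the detection floor, correspond to 0.102 to 0.120 CPM, the count scaled to the library total. Expression profiles correlated at r = 0.997 within a line and at 0.852 to 0.855 between lines, across genes, which are not independent replicates. A list of 7 pollen-related genes, some of those named in the study, had a summed level of 2159 to 2214 RPKM in ‘FT’ and 93.5 to 112 RPKM in *fsm*, and all 7 were lower in *fsm*, but the study chose them as differentially expressed in these libraries, so this count is no independent measure of pollen content. The part of this difference in the results on the *MYB* genes was not tested. In whole buds, fewer cells of a type and less RNA per cell cannot be told apart.

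In the mutant, 4 of the 10 *MYB* genes rose and 1 fell. The *MYB51* copy Bra016553 went from near absence to a moderate level, and Bra031035 was detected in *fsm* alone. The *MYB28* copies Bra035929 and Bra029311, the most highly expressed of the 10 in both lines, were about 2.50 and 2.56 times higher in *fsm*. The third copy, Bra012961, was lower, but this call was lost under 8 of 14 alternative analyses. No copy of *MYB34* passed the threshold. A gene was taken as changed where its adjusted p in edgeR (quasi-likelihood F-test, Benjamini-Hochberg over all genes) was 0.001 or less and its log2 fold change was 1 or more in either direction. Of all genes, 18.7% rose and 18.0% fell by this rule, so change itself was common in these buds. The median log2 fold change (*fsm* over ‘FT’) was 1.17 over the 10 genes and -0.02 over all genes. The first median includes the fitted value of Bra029350, which had at most 3 reads in any library. Setting Bra031035, which had no read in ‘FT’, at its lower bound could not move the median of the 10 genes, as the bound is also above it. The study set a log2 fold change of 4 or more in either direction, with the same limit on p, for its differentially expressed genes. This was passed by 2 of the 10, both higher in *fsm*, and 2.91% of all genes passed it in that direction. The normalized counts of the lines did not overlap for 6 genes that were higher in *fsm* and 2 that were higher in ‘FT’, where 37.5% of all genes were separated in each direction.

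**Figure D1:**
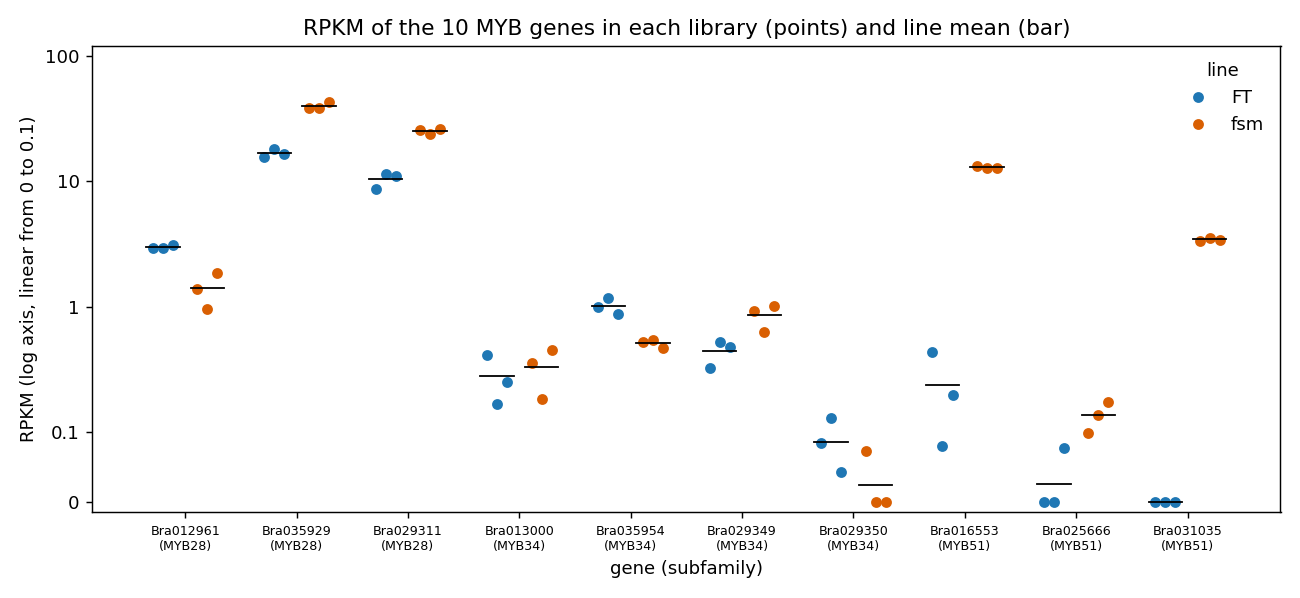
RPKM of the 10 *MYB* genes in each library, with 1 point per library and colours for the lines, on an axis that is linear near 0 and logarithmic above. Bra016553 was at 0.0796 to 0.432 RPKM in ‘FT’ and at 12.7 to 13.2 RPKM in *fsm*, and Bra031035 was at 0 in ‘FT’.

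The copies of *MYB28* were not alike in direction. Bra035929 had 430, 488 and 444 reads in ‘FT’ 1, 2 and 4 and 1219, 1177 and 1297 reads in *fsm* 1, 2 and 3. Its level in RPKM, which scales the reads by gene length and library total, was 16.8 ± 1.20 RPKM (SD, n = 3) in ‘FT’ and 40.0 ± 2.54 RPKM in *fsm*. Every *fsm* library was above every ‘FT’ library. The log2 fold change was 1.32 ± 0.08 (SE), with an adjusted p of 5.2e-19 by edgeR. Among the genes with a read in the line, ranked by mean RPKM, Bra035929 stood at percentile 68.6 in ‘FT’ and 84.1 in *fsm*.

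Bra029311 followed closely, with 246, 323 and 306 reads in ‘FT’ and 846, 760 and 824 reads in *fsm*. This was 8.65, 11.5 and 10.9 RPKM against 25.7, 23.8 and 26.2 RPKM, again without overlap. The log2 fold change was 1.36 ± 0.09 (adjusted p = 6.6e-17, edgeR). The ratio of Bra035929 to Bra029311 in RPKM was 1.64 ± 0.164 in ‘FT’ and 1.58 ± 0.0737 in *fsm*, with overlapping libraries (exact permutation test, two-sided p = 0.8).

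Bra012961 had 79, 78 and 83 reads in ‘FT’ and 43, 29 and 56 reads in *fsm*. Its level was 2.99 ± 0.115 RPKM in ‘FT’ and 1.40 ± 0.458 RPKM in *fsm*, so the mutant libraries were all lower but more scattered, from 0.955 to 1.87 RPKM. The fall was 2.03-fold (log2 fold change -1.02 ± 0.22, adjusted p = 6.1e-05, edgeR), just past the threshold for size. This call was lost under 8 of the 14 alternative analyses. Without any 1 of the 3 ‘FT’ libraries, or without *fsm* 1 or 2, the log2 fold change ranged from -1.04 to -0.81 with adjusted p between 0.0011 and 0.0029 by edgeR, and only without *fsm* 3 was the call kept.

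In the wild type, Bra012961 made up 9.95% ± 0.880 of the summed RPKM of the *MYB28* copies, and in *fsm* 2.08% ± 0.561. The share of Bra035929 was 55.8% ± 1.81 and 60.0% ± 1.10, and that of Bra029311 was 34.3% ± 2.26 and 37.9% ± 1.15. The ratio of Bra035929 to Bra012961 was 5.40, 6.20 and 5.30 in ‘FT’ and 28.1, 40.2 and 23.0 in *fsm*, in exact permutation p = 0.1, the smallest that 3 libraries against 3 allow (0.2 after adjustment over 6 ratios). The ratio thus separated the lines completely, and its lowest value in *fsm* was above its highest in ‘FT’. The summed level of the 3 copies was 27.3, 32.6 and 30.6 RPKM in ‘FT’ and 65.8, 63.2 and 71.0 RPKM in *fsm*, a ratio of 2.21.

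The 4 copies of *MYB34* were all at low levels in both lines, and none was called changed. Their summed level was 1.82 ± 0.175 RPKM in ‘FT’ and 1.72 ± 0.323 RPKM in *fsm*, with overlapping libraries. The most highly expressed copy in ‘FT’ was Bra035954, with 23, 27 and 20 reads, against 14, 14 and 12 reads in *fsm*. Its libraries did not overlap and its mean was 1.89 times higher in ‘FT’, but the log2 fold change of -0.92 ± 0.38 missed both limits (adjusted p = 0.0298, edgeR). Bra029349 lay the other way, with 7, 11 and 10 reads in ‘FT’ and 23, 15 and 24 reads in *fsm*. Its log2 fold change was 1.02 ± 0.44 with an adjusted p of 0.0337 by edgeR, which is above the threshold of 0.001.

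These copies changed places in the order of levels. In ‘FT’ the ratio of Bra035954 to Bra029349 in RPKM was 3.05, 2.28 and 1.85, and in *fsm* it was 0.564, 0.866 and 0.464. Bra035954 was therefore above Bra029349 in all 3 ‘FT’ libraries and below it in all 3 *fsm* libraries, on few reads (exact permutation p = 0.1, and 0.2 adjusted over 6 ratios). As a share of the *MYB34* sum, Bra035954 went from 55.7% ± 3.06 to 30.7% ± 8.26 and Bra029349 from 24.2% ± 5.62 to 49.3% ± 3.08.

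Both remaining *MYB34* copies were near the floor. Bra013000 had 10, 4 and 6 reads in ‘FT’ and 10, 5 and 12 reads in *fsm*, with overlapping libraries and a log2 fold change of 0.31 ± 0.61. Bra029350 had 2, 3 and 1 reads in ‘FT’ and 2, 0 and 0 reads in *fsm*, at or under 3 reads in every library, so no fold change is given. Such counts leave the fold changes of these copies imprecise.

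**Figure D2:**
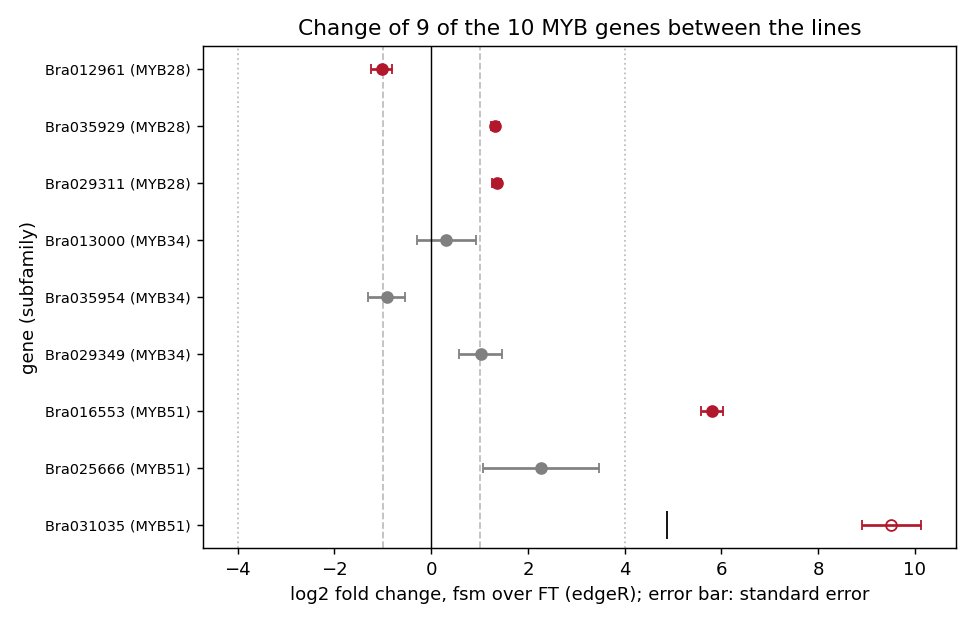
Log2 fold change (*fsm* over ‘FT’) of 9 of the 10 *MYB* genes from the edgeR fit (Bra029350, at or under 3 reads in every library, is left out), with bars of 1 SE, red for genes called changed and grey for the others. Dashed lines mark a log2 fold change of 1 and dotted lines 4 in either direction. The open circle is the fitted value of Bra031035, which has no read in ‘FT’ and depends on the prior count, and the black tick is its lower bound of 4.87.

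The copies of *MYB51* showed the largest differences of the 10 genes. Bra016553 had 11, 2 and 5 reads in ‘FT’ and 389, 364 and 358 reads in *fsm*. Its level was 0.237 ± 0.179 RPKM in ‘FT’ and 12.9 ± 0.286 RPKM in *fsm*, 55.8-fold higher in normalized counts (log2 fold change 5.80 ± 0.23, adjusted p = 5.8e-26, edgeR). The *fsm* libraries lay within a narrow range, whereas the ‘FT’ libraries rested on few reads each, which limits the precision of the fold change. Bra016553 moved from percentile 12.4 in ‘FT’ to 60.9 in *fsm*, by mean RPKM among the genes with a read in the line.

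Bra031035 had 0 reads in all ‘FT’ libraries and 95, 97 and 93 reads in *fsm*, or 3.36, 3.53 and 3.43 RPKM. Set against 3 reads in each ‘FT’ library, it was at least 29.2-fold higher in *fsm*, with an adjusted p of 1.5e-17 by edgeR. The depth of ‘FT’ allows a level of up to 3 reads per library and does not show absence. In *fsm*, where both were detected, Bra016553 was 3.94, 3.61 and 3.70 times the level of Bra031035 in RPKM, a mean ratio of 3.75 ± 0.169.

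The third copy, Bra025666, stayed near the floor, with 0, 0 and 2 reads in ‘FT’ and 3, 4 and 5 reads in *fsm*. All *fsm* libraries were above all ‘FT’ libraries, but the log2 fold change of 2.28 ± 1.20 was not called (adjusted p = 0.0856, edgeR). The 3 copies together had 0.432, 0.0796 and 0.278 RPKM in ‘FT’ and 16.7, 16.4 and 16.3 RPKM in *fsm*. In *fsm*, Bra016553 held 78.3% ± 0.875 and Bra031035 20.9% ± 0.705 of this sum. In ‘FT’ the share of Bra016553, 90.6% ± 16.2, rested on so few reads that it did not differ from that in *fsm* beyond the spread (exact permutation p = 0.4).

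**Figure D3:**
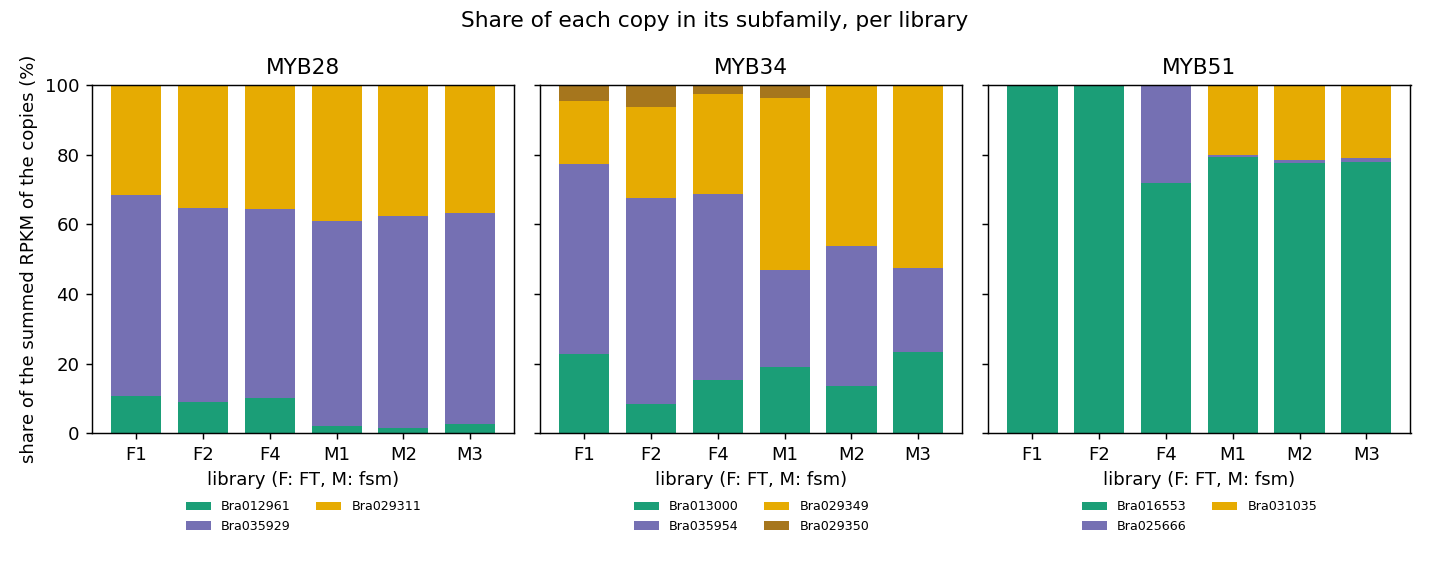
Share of each copy in the summed RPKM of its subfamily, in percent, with 1 stacked bar per library and a panel per subfamily. The share of Bra012961 among the *MYB28* copies was 9.95% in ‘FT’ and 2.08% in *fsm* on average, and Bra035954 and Bra029349 changed order among the *MYB34* copies. The ‘FT’ bars of *MYB51* rest on few reads.

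Set side by side, the subfamilies differed in their part of the whole. The 10 genes summed to 32.3 ± 2.53 RPKM in ‘FT’ and 84.9 ± 4.15 RPKM in *fsm*, a ratio of 2.63. *MYB28* copies made up 93.5% ± 0.953 of this sum in ‘FT’ and 78.5% ± 0.884 in *fsm*. *MYB51* copies went from 0.848% ± 0.615 to 19.4% ± 1.04, and *MYB34* copies from 5.67% ± 0.549 to 2.02% ± 0.310. Genes for regulators of the aliphatic branch thus held most of the summed level in both lines.

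By mean RPKM, the order in ‘FT’ began with Bra035929, Bra029311, Bra012961, Bra035954 and Bra029349, and these did not overlap with their neighbours above. From Bra029349 downwards, through Bra013000, Bra016553, Bra029350, Bra025666 and Bra031035, each gene overlapped the next in its libraries. In *fsm* the order was Bra035929, Bra029311, Bra016553, Bra031035, Bra012961, Bra029349, Bra035954, Bra013000, Bra025666 and Bra029350. There the only neighbours that overlapped were Bra012961 and Bra029349.

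The deposited coverage, the percentage of a gene's length touched by reads, gave a second view of the same genes. Bra016553 was covered over 68.8%, 14.0% and 50.1% of its length in ‘FT’ and over 99.1 to 99.3% in *fsm*. Bra031035 was covered over 96.8%, 96.8% and 97.9% in *fsm*, so its reads in the mutant were spread along nearly the whole gene. Bra012961 was covered over 95.9 to 97.8% in ‘FT’ and over 89.6%, 65.0% and 95.4% in *fsm*, and the mean difference of -13.6 percentage points was -4.41 without *fsm* 2.

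Bra035929 was almost fully covered in all 6 libraries, at 98.8 to 99.7%. Bra029311 reached only 91.2 to 93.7% in ‘FT’ and 87.7 to 91.3% in *fsm* despite its many reads. Genes of 800 to 1200 bp had a median coverage of 99.4% and a 5th percentile of 88.1% where they had 724 to 1023 reads. Coverage of the low *MYB34* copy Bra035954 was 80.0 to 90.8% in ‘FT’ and 60.0 to 67.4% in *fsm*, and that of Bra029349 was 47.8 to 79.1% and 82.1 to 96.1%. Both moved with their read counts, and coverage is not independent of the count. The libraries of the lines did not overlap in coverage for 4 genes that were higher in *fsm* and 2 that were higher in ‘FT’, where 11.7% and 28.8% of all genes were separated in these directions. Each of these 6 genes had an exact permutation p of 0.1, the smallest possible, and 0.167 after adjustment over 10 genes.

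**Figure D4:**
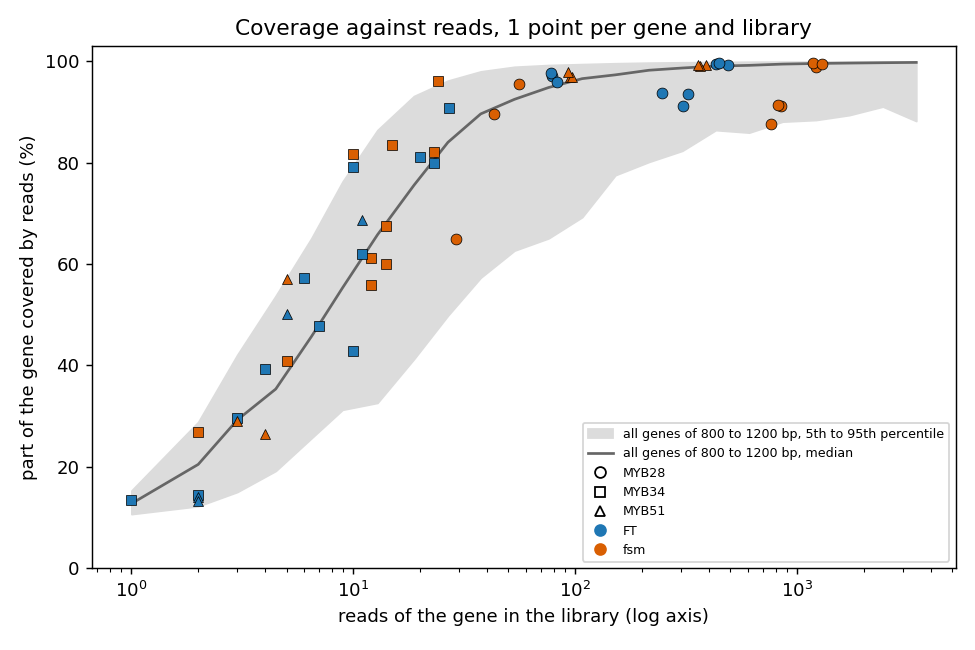
Coverage of each *MYB* gene in each library, in percent of its length, against its reads on a log axis, with the grey band spanning the 5th to 95th percentile of all genes of 800 to 1200 bp at that read count. Bra035929 was near full coverage in every library, and Bra029311 stayed at 87.7 to 93.7%.

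Genes of glucosinolate synthesis and breakdown moved in both directions, and whether the *MYB* factors regulate them was not tested. For this report, 7 genes of glucosinolate synthesis, sulfur activation and breakdown were picked by their descriptions among the study's differentially expressed genes. Of these, 4 rose and 3 fell, with a median log2 fold change of 4.68. All had already been called differentially expressed in these same libraries, so their count is no independent evidence. *CYP79B2* makes the first intermediate of indolic glucosinolates from tryptophan. Its copy Bra011821 had 24, 25 and 15 reads in ‘FT’ and 613, 735 and 771 reads in *fsm* (log2 fold change 4.93 ± 0.16, adjusted p = 3.4e-29, edgeR). Sulfotransferases carry out the last step of the core structure, and Bra015935, described as sulfotransferase 5a, had 4, 2 and 0 reads against 308, 304 and 265 reads. APS kinase provides the activated sulfate for that step, and its copy Bra011822 had 0, 2 and 6 reads in ‘FT’ and 223, 224 and 173 reads in *fsm*.

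On the side of breakdown, the myrosinase gene Bra036914 had 558, 502 and 463 reads in ‘FT’ and 14, 38 and 20 reads in *fsm*, and its log2 fold change was -4.51 ± 0.17 (adjusted p = 2.7e-26, edgeR). The other 3 genes of the list are named to complete it. A further *CYP79B2* copy, Bra017871, rose from 9, 6 and 4 to 206, 154 and 179 reads. The myrosinase-binding protein gene Bra014231 fell from 29, 37 and 18 to 0, 0 and 4 reads, and a second APS kinase gene, Bra010645, had 14, 25 and 13 reads in ‘FT’ and 0 in *fsm*. Synthesis genes of this list were thus higher in *fsm*, apart from Bra010645, and both genes of the myrosinase system were lower.

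The gene table at hand holds 1116 rows, far fewer than the genes tested, so genes of glucosinolate synthesis may be missing from it. The 3 genes that it annotates to glucosinolate synthesis were not called in either direction. Their log2 fold changes were -0.04 for Bra040341, -0.08 for Bra013675 and -0.32 ± 0.06 for Bra008463, and the last had an adjusted p of 7.2e-06 by edgeR but a change below the limit of 1. Jasmonate signalling, which in *Arabidopsis* promotes indolic glucosinolate synthesis and is held back by the JAZ repressors, was represented by 3 *JAZ* genes named in the study, again chosen on these libraries. All 3 rose, with a median log2 fold change of 4.41. Bra031065 went from a mean of 13.7 to 277 RPKM, Bra025713 from 6.04 to 118 RPKM and Bra022981 from 0.502 to 14.4 RPKM.

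**Figure D5:**
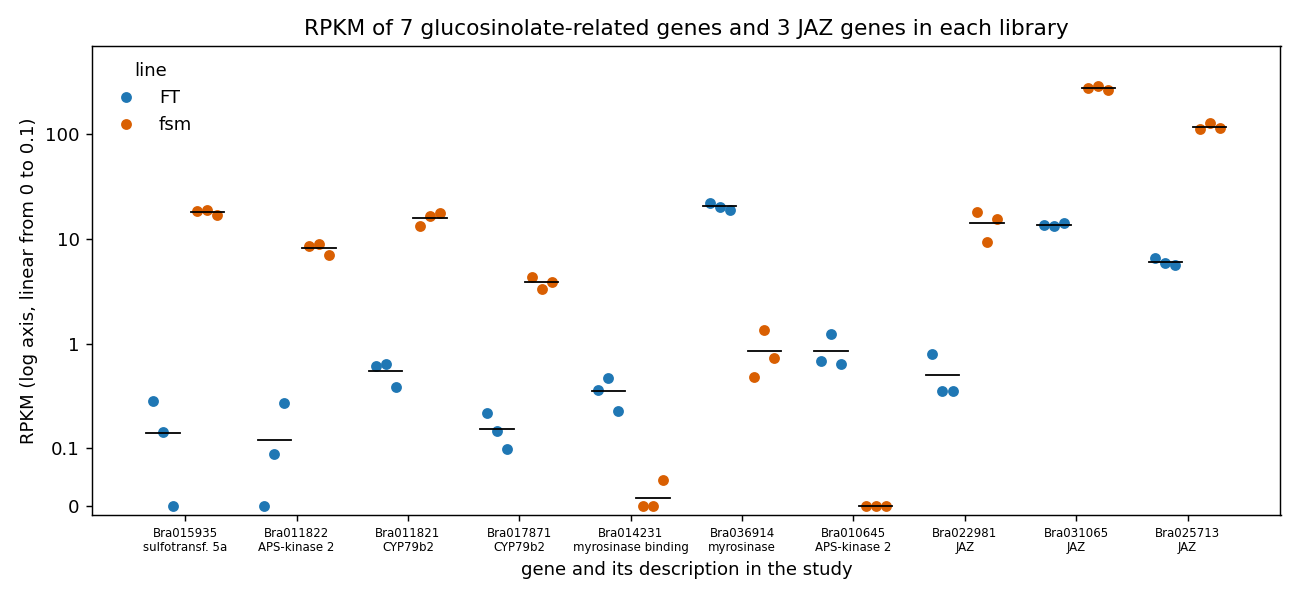
RPKM of the 7 glucosinolate pathway genes picked by description and of the 3 *JAZ* genes named in the study, with 1 point per library. The myrosinase gene Bra036914 and the myrosinase-binding protein gene Bra014231 were higher in ‘FT’, and both *CYP79B2* copies and all *JAZ* genes were higher in *fsm*.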

How the data were processed

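The authors aligned clean reads with SOAP2 (up to 5 mismatches) to *B. rapa* genome version 1.5 and deposited, per gene and library, the count of reads, not normalized, the RPKM and the coverage. Deposited counts were described as uniquely matched, but they sum to more than the totals of unique and of mapped reads in the paper, and the reason is not given in the sources used here. Whether reads shared by near-identical copies were counted is thus unknown, and splits between copies are uncertain. Genes missing from a list were taken as 0. All 35616 gene lengths are multiples of 3, so RPKM uses coding length. The authors' comparison columns (fold changes, p-values) in supplementary tables were not used.

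Counts were tested in R 4.3.3 with edgeR 4.0.16 (TMM, quasi-likelihood test, all 6 libraries, no filter, default prior count), with Benjamini-Hochberg adjustment over 35616 genes. The SE is the absolute log2 fold change divided by the square root of F. Shares, ratios and coverage were compared by two-sided exact permutation tests. Depths were 24990396 to 29366538 reads; floors and errors cover counting error or the spread between libraries only. Sequencing lanes and batches are not given in the sources used here, so a batch that followed the lines cannot be told apart from them. On simulated counts for 35250 genes, edgeR recovered 100 of 100 genes changed by 2 and 100 of 100 changed by 5 on the log2 scale. These genes were drawn only from those with more reads on average than any *MYB34* copy or Bra025666, with the same spread for all. The recovery therefore says nothing about those copies, or about changes below 2 such as those of the *MYB28* copies.

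The genes and lists were chosen with earlier results of these data known. Named were all 10 genes, at most 4 per list by mean CPM (others are said to be so), and the 3 genes most correlated with the most expressed copy of each subfamily. Names came from the study's gene descriptions. Of the 10 genes, only Bra016553 and Bra031035 are so named, and the other names rest on the gene list used for the selection. The reference gene table matched 1 identifier and no *MYB* gene here, so positions are not given. No annotated flower marker list was used to check the tissue. Alternatives were DESeq2 1.42.0 size factors and test, total counts, filterByExpr, a prior count of 2, limma 3.58.1 on the log2 of RPKM plus a pseudocount of 1 or 0.1, raw counts for shares, leaving out each library, and a replicate block.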

Additional observations from a re-analysis of the deposited data

How the results depend on the processing

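The 4 genes that rose were called under all 14 alternatives, with log2 fold changes of 1.20 to 1.38 (Bra035929), 1.22 to 1.43 (Bra029311), 3.50 to 6.55 (Bra016553) and 2.15 to 9.53 (Bra031035). The count of genes that fell, 1 in the report, was 0 with a prior count of 2 (Bra012961 at -0.99), 0 with limma on log2(RPKM + 1) (-0.75) and 0 with limma on log2(RPKM + 0.1) (-1.09), and 0 to 1 when a library was left out. The count past a log2 fold change of 4, 2 in the report, was 0 with limma on log2(RPKM + 1), where a pseudocount of 1 shrinks low genes, and 2 under the other alternatives. No alternative reversed a direction that was called. filterByExpr removed Bra013000, Bra025666 and Bra029350, which have no value there. The labels number the libraries 1, 2 and 4 in ‘FT’ and 1, 2 and 3 in *fsm*. A replicate block over the 4 libraries numbered 1 and 2 gave 4 genes higher and 1 lower, with Bra012961 at -1.25. Deviations of same-numbered libraries correlated at -0.06 and 0.08, and whether these libraries share more than a number was not tested. Bra029350, Bra025666 and Bra013000 had at most 12 reads in any library, so at this depth their fold changes are imprecise.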

Other observations

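The *MYB* family in the study's own table of differentially expressed genes held 15 genes, of which Bra016553 and Bra031035 are described above. Of the other 13, 9 rose and 4 fell in *fsm*, in a list chosen on these libraries, and their median log2 fold change was 5.90, or 3.49 with the 3 genes that had no read in 1 line set at their bound, against -0.02 over all genes. Bra001907, described as a copy of *MYB15*, a stress-related R2R3-MYB in *Arabidopsis*, had 0, 4 and 2 reads in ‘FT’ and 693, 761 and 679 reads in *fsm* (log2 fold change 8.27 ± 0.23). The *MYB15* copies Bra014929 and Bra023742 had log2 fold changes of 6.19 and 7.33.

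The genes whose profile over the 6 libraries was most like that of Bra035929 were Bra030168, Bra034573 and Bra013952, and those most like Bra016553 were Bra034624, Bra029511 and Bra014396. With 6 libraries in 2 lines such likeness was common, as 2794 of 26736 genes passed r = 0.99 with Bra035929 and 4052 with Bra016553. For the *MYB34* copy Bra035954 the nearest were Bra038645, Bra016938 and Bra027831, and 30 of 26737 genes passed r = 0.99.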
